A study of Gallus gallus with 4 samples.

Results

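The comparison described here is between the retina, retinal pigment epithelium (RPE) and choroid of chick eyes at the end of form deprivation (FD 0 hr) and the same tissues of unoccluded control eyes. Each side was 1 Affymetrix chicken array that carried RNA of the right eyes of 5 Leghorn/New Hampshire chicks, labelled as male and mixed in equal amounts. FD chicks wore a translucent occluder over the right eye and had their tissue collected when it came off, while control chicks wore none, and all chicks were kept on 12 h of light and 12 h of dark. The treatment protocol gives 10 days of occlusion from day 2 after hatching, whereas the sample labels give 7 days and an age of 11 days, and the time of day of collection is not given in the sources used here. Form-deprived chicks with 6 hr (FD 6 hr) or 24 hr (FD 24 hr) of normal vision after occluder removal gave 1 array each, and their values stand beside those of the comparison. By the labels the FD 24 hr chicks were 12 days old and those of the other arrays 11 days. A gene was described when its mean over the 4 arrays was above 6.28, which 60% of all probe sets did not exceed on average, and it lay on an autosome of the chicken assembly GRCg7b. These were 5745 of 13051 genes measured. A further 269 genes of the Z chromosome and 4 of the W chromosome were set apart, 83 had no chromosome, and the remaining 6950 genes were under the limit and are called dim.

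An occluder that blurs the image makes the growing chick eye elongate and become myopic, and the eye recovers once clear vision returns. The retina detects the blur, the RPE lies between retina and choroid and moves ions, fluid and signals across, and the vascular choroid and the sclera behind it change in thickness and growth. Because the 3 tissues were collected as 1 sample, a lower value of a gene can mean fewer cells of a type or less RNA per cell, and these cannot be told apart.

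Values are log2 expression, so that a difference of 1 is a factor of 2, and every difference is that of the FD 0 hr array minus the control array unless another is named. As each condition had 1 array, there was no replicate error, no test and no p-value, and a single array per condition bounds how precise any value is. The median over all probe sets was 5.74 on both arrays. Probe sets that read the same gene differed from one another, in their difference between the arrays, with an SD of 0.43 over 2929 autosomal genes with more than 1 probe set, which is a technical spread within these arrays and not an error between chicks. Both arrays had a feature that stood apart. On the control array HINTW, a gene of the female W chromosome, was at 9.36 against 5.34 to 5.52 on the other arrays, although the labels give all chicks as male. On the FD 0 hr array the probe set for the 3′ end of β-actin exceeded that for the 5′ end by 3.72, against 2.39 to 2.85 on the other arrays, and the poly-A spike-in controls were 0.58 to 0.70 above those of the control array. The control and FD 0 hr arrays also stood apart from both recovery arrays in their spike-ins, with the hybridisation control bioC at 9.92 and 9.75 against 6.93 and 6.99 and the poly-A control dap at 8.85 and 9.54 against 7.46 and 7.11, which bears on every value set beside a recovery array. The part of these features in the differences was not tested.

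Among the 5745 autosomal genes above the limit, 218 were higher by at least 1 on the FD 0 hr array, which is 3.79%, and 275 were lower by at least 1, which is 4.79%. The median difference was -0.06 and the middle 50% of genes lay between -0.37 and 0.26. Differences within 0.5 in either direction were found for 67.1% of the genes, while 15 genes were past 2 and 16 past -2. BIVM, FOXO1 and GTF2A2 were just past a difference of 1, and NCALD, SOGA3 and CNGB3 just past -1. FIGNL2, KICS2 and MAU2 had means just above the limit for dim genes, and of these MAU2 was at -1.05. Of the genes higher by at least 1, 38 were under the limit on the control array, and of those lower by at least 1, 35 were under it on the FD 0 hr array. Genes that pass only through the array where they are high are therefore among those counted.

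Both counts were smaller when either array was replaced. When the array of 6 hr of recovery took the place of FD 0 hr, 70 genes exceeded control by at least 1 and 68 fell short of it by as much, and with that of 24 hr these were 31 and 82. With the control array left out and FD 0 hr set against the mean of both recovery arrays, 47 genes were higher and 59 lower, and 39 and 54 of these belonged to the 218 and 275 genes. The 218 higher genes had a median level of 7.53 on the control array, 8.86 at FD 0 hr, 8.34 after 6 hr of recovery and 8.06 after 24 hr. The 275 lower genes had 8.98, 7.56, 8.17 and 8.47 in the same order. Since the genes were picked on the control and FD 0 hr arrays, the position of the recovery arrays between them is a description only.

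**Figure D1:**
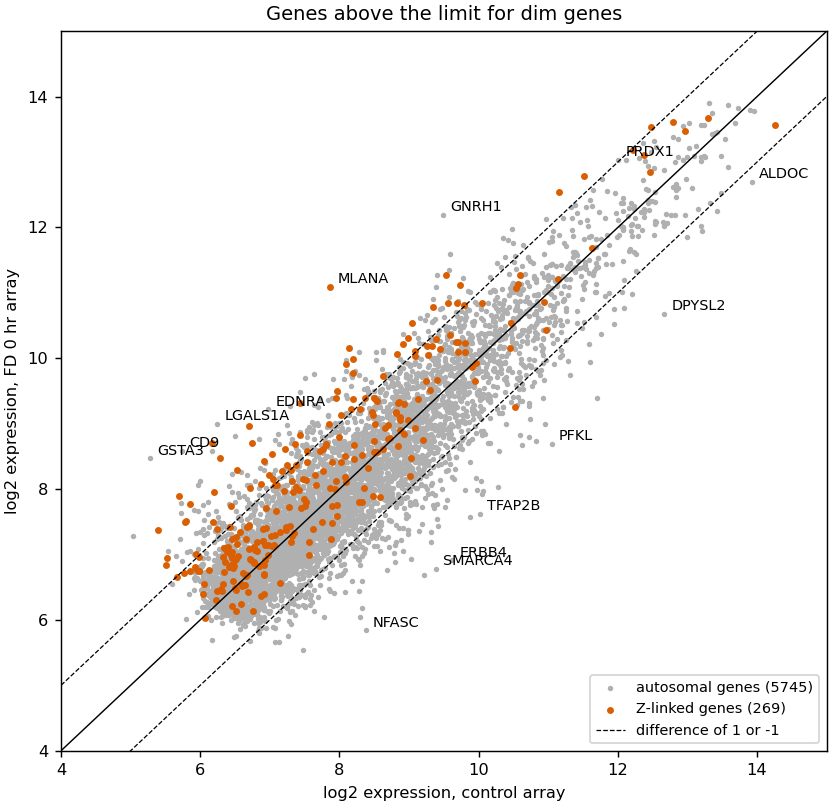
Log2 expression on the FD 0 hr array (vertical axis) against the control array (horizontal axis) for 5745 autosomal genes (grey) and 269 Z-linked genes (orange) above the limit for dim genes, 1 point a gene. Dashed lines mark differences of 1 and -1. The Z-linked points lie mostly above the diagonal, and the labelled PRDX1 lies just past the upper line, at 1.02.

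The genes furthest above control included enzymes of detoxification and prostaglandin synthesis. GSTA3, a glutathione transferase, stood at 5.28 on the control array, 8.47 at FD 0 hr, 6.76 after 6 hr of recovery and 7.39 after 24 hr, a log2 difference of 3.19. HPGDS, which makes prostaglandin D2 and belongs to the same transferase superfamily, stood at 6.50, 8.80, 7.58 and 8.33 in this order, and its 2 probe sets were at 2.15 and 2.46. For both genes the control array was the lowest of the 4 and the FD 0 hr array the highest. Genes named here and below for their difference were chosen on these arrays, so such an order is a description only. CH25H, the cholesterol 25-hydroxylase, was at 5.97 on the control array and 8.07 at FD 0 hr, with 8.35 after 6 hr of recovery and 7.03 after 24 hr. AKR1D1, the steroid 5β-reductase of bile acid synthesis, was at 5.73 and 7.63, with 6.34 after 6 hr of recovery and 5.68 after 24 hr, so that it passed 6.28 at the end of deprivation and after 6 hr of recovery alone.

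Membrane proteins, secreted factors and their receptors formed a further part of the largest positive differences. CD9, a tetraspanin that organises adhesion and signalling proteins in the cell membrane, was at 5.74 on the control array, 8.59 at FD 0 hr, 6.42 after 6 hr of recovery and 6.15 after 24 hr. CD9 was under the limit for dim genes on the control and FD 24 hr arrays. The FD 0 hr array stood apart from the other 3. GNRH1, which encodes gonadotropin-releasing hormone, had the same pattern, at 9.49, 12.19, 10.03 and 9.90, a difference of 2.70. LGALS1A, a galectin that binds β-galactosides, differed from this, since it was at 6.24 on the control array and higher by 2.76 at FD 0 hr, passed through 7.44 after 6 hr of recovery and was again at 8.97 after 24 hr. EDNRA, a receptor for endothelin found on vascular smooth muscle, was at 6.98, 9.22, 8.13 and 7.26, a difference of 2.24. EDNRB, the other endothelin receptor, was at 6.42 on the control array and 8.04 at FD 0 hr, its 2 probe sets gave 1.5 and 1.75, and it was higher still at FD 6 hr, at 8.27. RGS18, a regulator of G protein signalling known from platelets, was at 5.04 on the control array and 7.29 at FD 0 hr. It was at 6.86 after 6 hr of recovery and 5.96 after 24 hr. Its mean, 6.288, was just above the limit for dim genes, and its control and FD 24 hr values were under that limit. CA4, a membrane-bound carbonic anhydrase, was at 8.28 on the control array and 10.10 at FD 0 hr.

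Several others among the 25 genes with the largest positive differences act in protein synthesis, folding and breakdown or in lipid handling. MRPS10, a protein of the mitochondrial ribosome, was at 7.50 on the control array and 9.70 at FD 0 hr, PFDN4, a subunit of the folding complex prefoldin, at 9.59 and 11.59, and EXOSC8, a subunit of the RNA exosome, at 7.29 and 9.27. PDIA4, a protein disulfide isomerase of the endoplasmic reticulum, was higher by 1.24 and 2.31 by its 2 probe sets. BAG1, a partner of the HSP70 chaperones, was higher by 1.73 and SHFM1, a small subunit of the proteasome lid, by 1.72. All 6 were highest on the FD 0 hr array and lowest on the control array, the arrays on which they were chosen. FABP9, a fatty acid binding protein, was higher by 1.93 and LYPLAL1, a lysophospholipase-like protein, by 2.13. CSTA, an inhibitor of cysteine proteases, was higher by 2.06, IFI6, an interferon-induced gene, by 1.88, and ABRACL, ZFAND1 and ZPBP1 by 1.72 to 2.13. For ATP6V0D2, which belongs to the proton pump of lysosomes, the gene value was higher by 2.42, but its 3 probe sets ranged from 0.11 to 2.42, and for PDCD6, a calcium-binding protein, 5 probe sets ranged from 0.12 to 2.04.

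Among the genes furthest below control were receptors and adhesion proteins of neurons. ERBB4, a receptor of neuregulins, stood at 9.62 on the control array, 6.91 at FD 0 hr, 8.28 after 6 hr of recovery and 8.58 after 24 hr, a log2 difference of -2.71. NFASC, which assembles the axon initial segment and the node, was at 8.38, 5.84, 7.04 and 8.25, and its 3 probe sets gave -2.59 to -0.68. In both the FD 0 hr array was the lowest and the control array the highest, and these arrays chose the genes. PCDHGA2, a γ-protocadherin, was at 11.70 on the control array, at 9.4 at FD 0 hr and back at 11.54 after 24 hr of recovery. IGF1R, which binds insulin-like growth factors, was at 9.97, 7.99, 8.73 and 9.45. LSAMP, an adhesion protein of the limbic system, was at -2.80 and -1.1 by its 2 probe sets. MDGA2, which regulates synaptic adhesion, was at -2.09 and GPR37L1, a receptor of glia, at -1.97.

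Synaptic and ion channel proteins were also in this group. DNM1, the dynamin of synaptic vesicle endocytosis, was at 10.29 on the control array and 8.03 at FD 0 hr, with 9.55 at FD 24 hr, and both of its probe sets were lower, at -2.86 and -1.65. SLC6A9, a glycine transporter, was at 10.72, 8.79, 9.80 and 10.23. KCNA2, a voltage-gated potassium channel, differed from the others, as it was at 8.33 on the control array, 6.18 at FD 0 hr, then 6.88 after 6 hr of recovery but lowest at FD 24 hr, at 5.47. Its FD 0 hr and FD 24 hr values were under the limit for dim genes. SYNGR1, a synaptic vesicle protein, was at 10.95 on the control array and between 8.99 and 9.31 on the other 3. The calcium sensor NCS1 was at -2.13, IQSEC3, an exchange factor of inhibitory synapses, at -2.15 and -2.04 by its 2 probe sets, and DPYSL2, which binds tubulin in growing axons, at -1.99 from a level of 12.67.

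Nuclear and metabolic proteins made up the rest. SMARCA4, the ATPase of a chromatin remodelling complex, stood at 9.39 on the control array, 6.78 at FD 0 hr, 7.19 after 6 hr of recovery and 7.93 after 24 hr. HDAC4, a histone deacetylase, was at 8.68, 6.76, 7.95 and 8.99, so that FD 24 hr exceeded control. TFAP2B, a transcription factor of amacrine and horizontal cells, was at 10.02, 7.62, 8.82 and 9.37. In these 3 the FD 0 hr array was the lowest. PFKL, a phosphofructokinase of glycolysis, had a difference of -2.36 and HK1, a hexokinase, of -2.09 with probe sets from -2.09 to -0.67. PRPF8, a core protein of the spliceosome, was at -2.13, but 1 of its 3 probe sets was at -0.06. CSRP1, a LIM domain protein, was at 8.3 on the control array and between 6.02 and 6.92 on the other arrays. NPEPPS, a cytosolic aminopeptidase, was at -2.31, and VPS26B of the retromer, FBRSL1 and NACAD at -1.97 to -1.91.

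**Figure D2:**
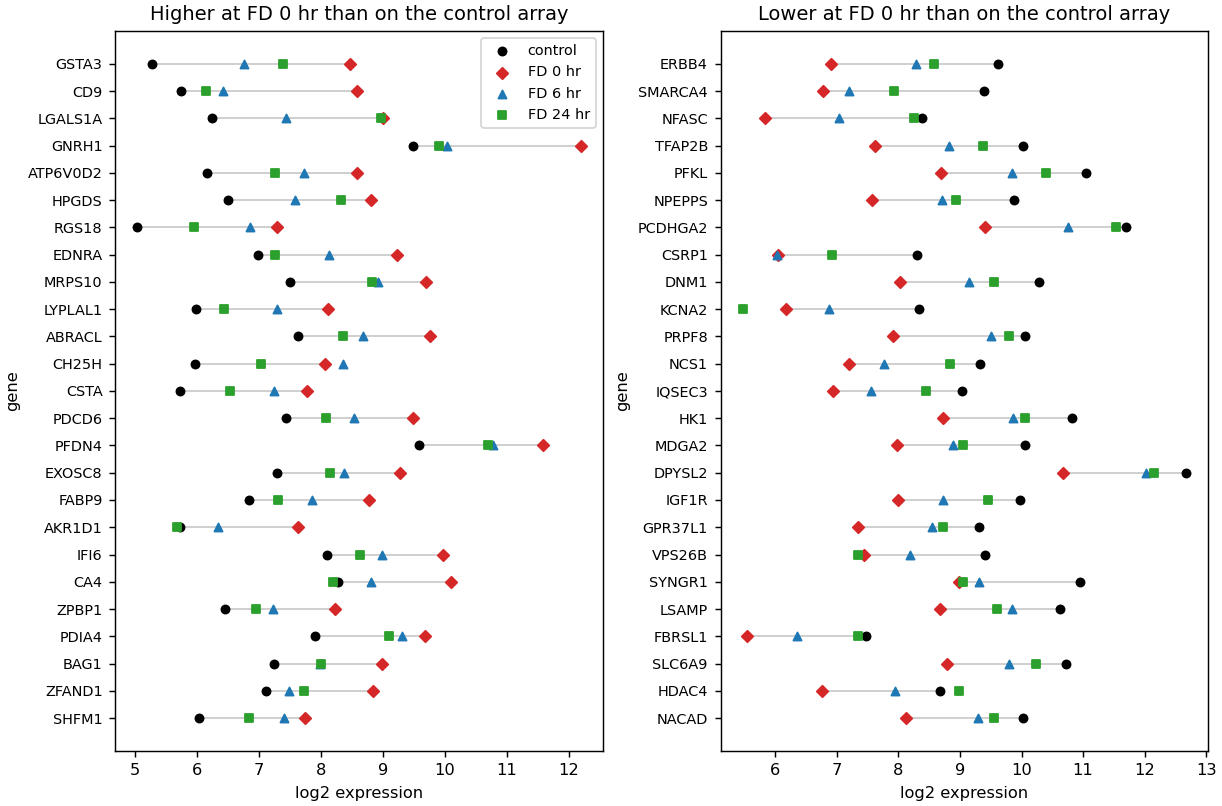
Log2 expression (horizontal axis) of the 25 named autosomal genes with the largest positive (left) and negative (right) differences, 1 row a gene and 1 symbol for each of the 4 arrays. Grey lines join control and FD 0 hr, which chose the genes. FD 6 hr lies outside that line for CH25H and CSRP1, and FD 24 hr for AKR1D1, CA4, KCNA2, VPS26B and HDAC4.

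Most of the counted genes rested on a single probe set, namely 149 of the 218 higher and 147 of the 275 lower genes. Among the 69 higher genes with more than 1 probe set, all probe sets went the same way in 56 and every probe set was past 1 in 23. Of the 128 lower genes with several probe sets these were 98 and 20. Over all 2929 autosomal genes above the limit with more than 1 probe set, all probe sets went the same way in 55.3%. The counted genes were chosen on the median of these same probe sets, which favours a larger share. The comparison is therefore a description only. A gene value is the median of the probe sets on each array before the difference is taken, so that it can lie at the edge of the probe set differences. EBF3, a transcription factor of ganglion cells, had a gene value of -2.53, while its 3 probe sets ranged from -2.53 to 0.11. β-Actin (ACTB), a protein of the cytoskeleton, had a value of -1.71 and 7 probe sets between -1.71 and -0.41, among them the array's control probe sets, with -1.71 at the 5′ end, -1.28 in the middle and -0.53 at the 3′ end.

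**Figure D3:**
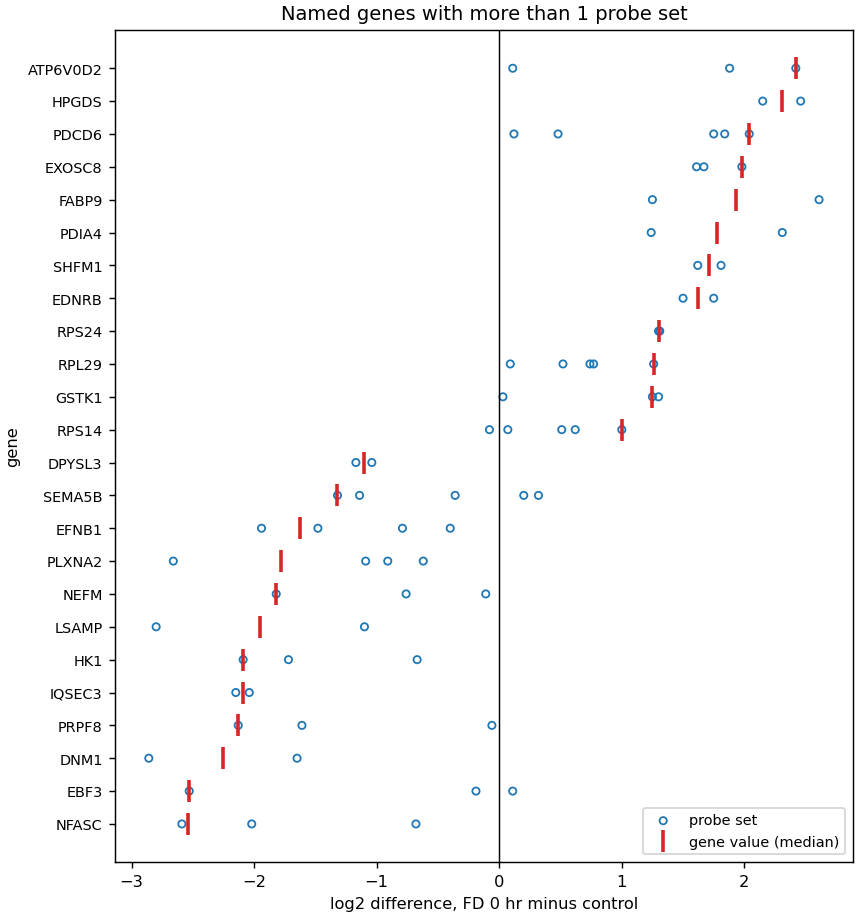
Log2 difference of FD 0 hr minus control (horizontal axis) of each probe set (circles) and of the gene value (red bars) for genes with more than 1 probe set that are named from the largest differences or from 6 of the lists and are past 1. Both probe sets of HPGDS, EDNRB, RPS24, IQSEC3 and DPYSL3 lie close together, whereas those of ATP6V0D2, PDCD6, EBF3 and PRPF8 spread from near 0 to past 2.

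For lists of genes of known function, all measured autosomal members are given, dim ones included, and the same over all 12228 measured autosomal genes is a median of -0.01, with 2.16% higher and 2.4% lower by at least 1. Of these 12228 genes 5912 were above and 6174 below 0. Lists with most members above the limit compare better with the 5745 genes above it. Of those, 2519 were above and 3187 below 0, and 3.79% were higher and 4.79% lower by at least 1. In the list of glutathione and antioxidant enzymes 42 of 47 listed genes were measured on autosomes, 34 of them above the limit. Of the 42, 8 were higher by at least 1, or 19.0%, and 0 were lower by as much, while 21 were above and 21 below 0 and the median was 0.03. The positive differences were in transferases and peroxide-removing enzymes. GSTA4 was at 7.63 on the control array and 9.29 at FD 0 hr, GSTA2 at 9.13 and 10.31, and GSTK1, which is mitochondrial and peroxisomal, at 7.30 and 8.55 with probe sets from 0.03 to 1.3. CAT, the catalase of peroxisomes, was at 8.09 on the control array, 9.17 at FD 0 hr, then 7.61 after 24 hr of recovery, and PRDX1, a peroxiredoxin, at 12.01, 13.03 and 12.63. The transferases GSTA3 and HPGDS described above belong to this list, and GSTO2, a dim gene of the omega class, was higher by 1.88. HMOX1, the inducible heme oxygenase, was at 0.92. Against the mean of the recovery arrays, without the control array, the median was 0.11.

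Ribosomal proteins were mostly higher. Of 61 cytosolic ribosomal proteins measured, 47 were above and 14 below 0, and the median was 0.27. By at least 1, 5 were higher, or 8.2%, and 0 lower. RPS24, a protein of the small subunit, was at 9.45 on the control array and 10.76 at FD 0 hr with probe sets at 1.3 and 1.31, RPL29 of the large subunit at 7.61 and 8.87 with probe sets from 0.09 to 1.26, and RPS27L at 8.40 and 9.54. Without the control array the median was 0.09. The mitochondrial ribosome had 36 of 62 proteins above 0, a median of 0.08, and 5 higher by at least 1, or 8.06%, with 0 lower. Beside MRPS10 these were MRPL53 at 1.67, MRPL39 at 1.38, MRPS17 at 1.23 and MRPS35 at 1.18, and each was highest on the FD 0 hr array. In the respiratory chain and ATP synthase 38 of 60 genes were above 0 with a median of 0.08. Of the 60, 4 were higher by at least 1, or 6.67%, and 2 were lower by as much, or 3.33%. Among the 4 were NDUFS3 and NDUFA1 of complex I, higher by 1.45 and 1.16. The 2 lower genes were ATP5B, the catalytic subunit of ATP synthase, at -1.19 and NDUFV1 at -1.14. Both recovery medians of this list against control, 0.20 after 6 hr and 0.12 after 24 hr, exceeded the 0.08 of FD 0 hr. Without the control array the median was 0.05. The summed linear signal of this list was 79910 on the control array and 105158 at FD 0 hr. During recovery the sum was 96087 after 6 hr and 85593 after 24 hr, so that sum and median ranked the arrays differently.

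Several genes of glycolysis and cholesterol synthesis were lower. All 23 glycolysis genes measured were above the limit, and 16 were below and 6 above 0. The median was -0.23, or -0.14 without the control array. Of the 23, 6 were lower by at least 1, or 26.1%, and 1 was higher by as much, or 4.35%. ALDOC, an aldolase of brain and retina, was at 13.93 on the control array, 12.70 at FD 0 hr, 13.27 after 6 hr of recovery and 13.55 after 24 hr. SLC2A1, a glucose transporter, had a difference of -1.14, and HK2, a hexokinase, was at 7.69, 6.35, 6.55 and 6.43. The pyruvate kinase listed as PKLR, whose RefSeq synonyms include PKM, was at -1.17, and PFKL and HK1 complete the 6. PDK4, a kinase that inhibits pyruvate dehydrogenase, went the other way, from 9.27 to 10.41. Of 20 cholesterol synthesis genes, 4 were lower by at least 1 and 0 higher, with a median of -0.13, or -0.08 without the control array. They were SREBF2, the transcription factor that drives the pathway, at -1.58, FDFT1, the squalene synthase, at -1.41, FDPS, the farnesyl diphosphate synthase, at -1.16 and INSIG1, which retains the SREBP proteins, at -1.12. Of these, FDPS was above the limit for dim genes on the control array alone. MSMO1, a sterol oxidase of the same pathway, was at 0.97. The summed linear signal of the cholesterol list was 7496 on the control array and higher at FD 0 hr, at 8993.

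Genes of axons, synapses and chromatin had their counted members on the lower side. In the axon guidance list 54 genes were measured and 23 were above the limit, and 34 were below and 19 above 0. The median was -0.13, or -0.05 without the control array. Of the 54, 5 were lower by at least 1, or 9.26%, and 0 were higher by as much. Beside DPYSL2 they were PLXNA2, a semaphorin receptor, from 9.15 to 7.37, EFNB1, an ephrin, from 8.81 to 7.19, SEMA5B, a semaphorin whose 5 probe sets ranged from -1.32 to 0.32, and DPYSL3 at -1.10. Of 20 synaptic vesicle release genes 13 were below 0 and 3 lower by at least 1, with a median of -0.21. CPLX3, the complexin of ribbon synapses, was at 13.21 on the control array and 11.95 at FD 0 hr, and SYT1, the calcium sensor of release, was at 9.68 and 8.49, but at 8.87 after 6 hr of recovery and lowest after 24 hr, at 7.98. Without the control array SYT1 was at 0.07. Of 91 chromatin remodellers and histone modifiers 59 were below 0, and the median was -0.15. By at least 1, 7 were lower, or 7.69%, and 0 higher. They included KDM4A, a histone demethylase, at -1.43 and CHD7, a remodeller, at -1.24 with probe sets from -1.48 to 0.22. The median of this list was -0.04 without the control array and -0.02 without probe sets marked as shared between transcripts.

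In the matrix and vessel lists, members went both ways. MMP2, the gelatinase of matrix turnover, was at 9.16 on the control array, 10.61 at FD 0 hr, 9.76 after 6 hr of recovery and 8.83 after 24 hr. It was the only 1 of 46 matrix proteases and inhibitors past 1, or 2.17%, and 0 were past -1. Of the 46, 22 were above and 23 below 0, with a median of -0.01. Of 53 genes for proteoglycans and basement membrane 27 were above and 26 below 0, and the median was 0.01. SDC3, a syndecan, VTN, vitronectin, and GPC1, a glypican, were each at -1.65, and NCAN, the neurocan of the nervous system, at -1.20, whereas the dim genes POSTN and OGN were at 1.09 and 1.12. Among 40 collagens COL5A1 was at -1.36, with probe sets from -1.46 to 0.09, and COL1A1 at -1.09, while the dim COL14A1 was at 1.27 and the median was -0.06. The endothelium and vascular growth list had 6 of 35 genes higher by at least 1, or 17.1%, and 0 lower by as much, with a median of 0.04. Of the 35 genes 19 were above and 16 below 0, with the lowest at -0.83. CDH5, the cadherin of endothelial junctions, was at 8.09 on the control array, 9.44 at FD 0 hr, 8.54 after 6 hr of recovery and 7.90 after 24 hr, and FLI1, a transcription factor of endothelium and blood cells, at 7.84, 9.36, 8.34 and 7.65. VEGFD was at 1.02, the dim lymphatic marker LYVE1 at 2.14, and both endothelin receptors are on the list. MYH11, the myosin of smooth muscle, was at 8.10 and 9.81 and CALD1, caldesmon, at 7.12 and 8.69, but TAGLN, another smooth muscle gene, was at -1.18.

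Genes of eye growth signals and of the clock are given for their known link to myopia or to the daily cycle of the retina. ALDH1A3, which makes retinoic acid, was at 6.45 on the control array, 7.96 at FD 0 hr, 8.26 after 6 hr of recovery and 7.37 after 24 hr. RARB, a retinoic acid receptor, was at 0.93 and NR2F2, an orphan nuclear receptor, at -1.09, and the 14 measured genes of the pathway had a median of -0.24, which turned to 0.08 without the control array. Of 27 neuropeptide genes GNRH1 was at 2.70 and GCG, the glucagon gene, was higher on both probe sets, by 1.3 and 1.34. CHGA, chromogranin A, was lower at -1.39, with 3 probe sets from -1.39 to -0.29. SCG3, secretogranin III, was at -1.04 and ADCYAP1, which encodes PACAP, at -1.07. Of 19 clock genes 13 were below 0 and the median was -0.40, but it was -0.14 without the control array and -0.18 without shared probe sets. ARNTL2, a partner of CLOCK, was at 8.61 on the control array, 9.84 at FD 0 hr, 9.93 after 6 hr of recovery and 8.70 after 24 hr. HLF, an output factor of the clock, was at 10.63, 9.53, 9.49 and 10.30, and its 4 probe sets ranged from -2.93 to -0.28. In both genes the FD 24 hr array was nearer to control than to FD 0 hr. Among 26 immediate early genes, which respond to activity, 20 were below 0 with a median of -0.21, or -0.03 without the control array, and 0 were past 1 or -1.

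**Figure D4:**
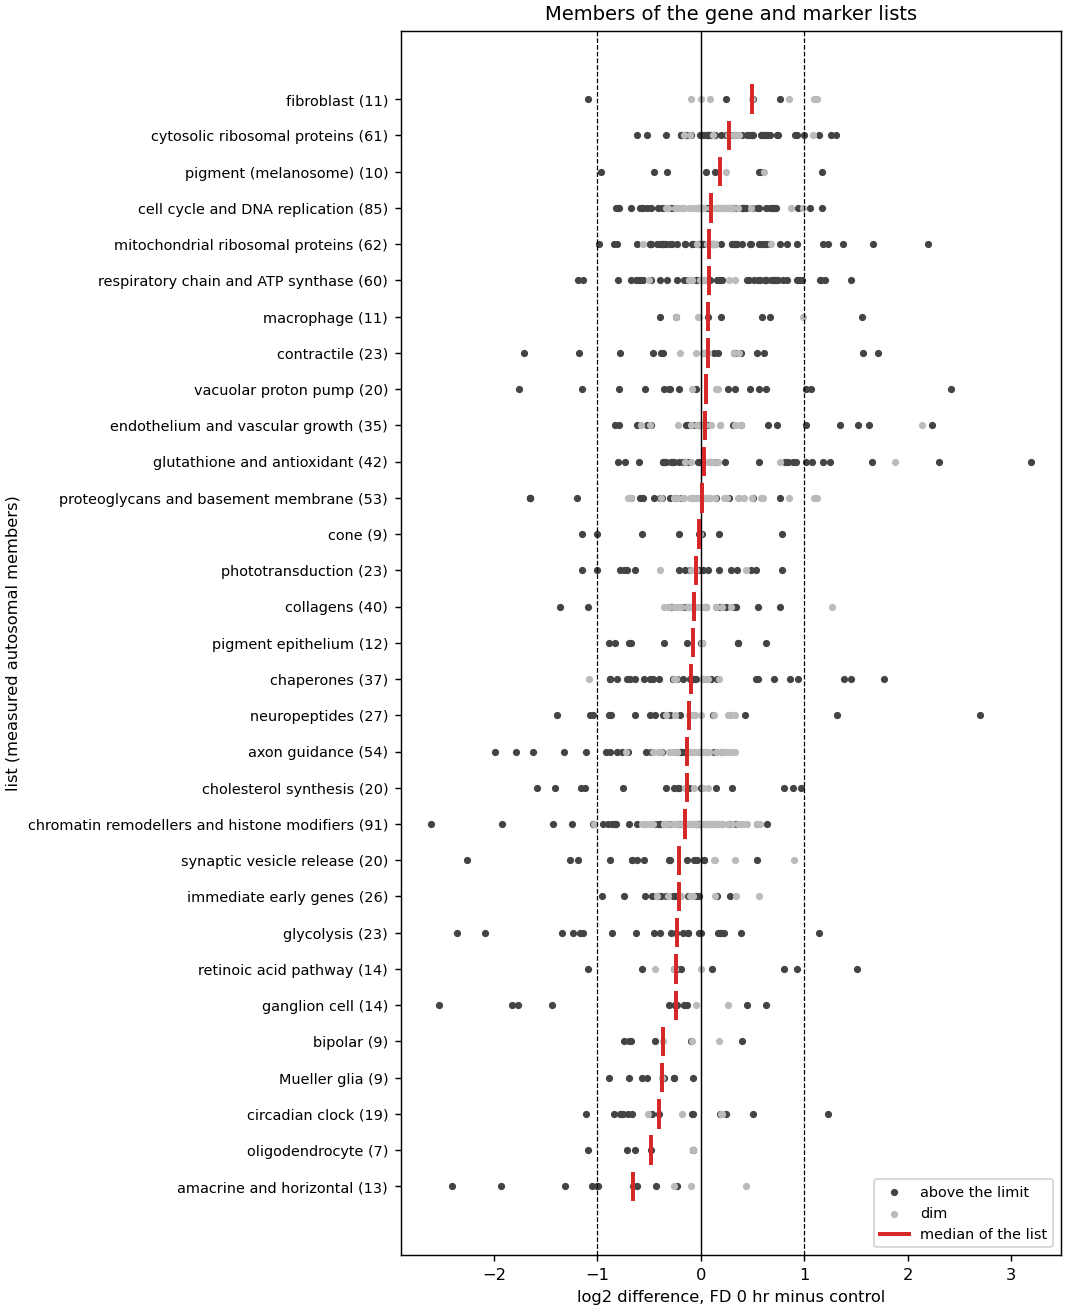
Log2 difference of FD 0 hr minus control (horizontal axis) of each measured autosomal member (points, dark above the limit for dim genes and light when dim) of the gene and marker lists, with the median of each list in red and the number of members in brackets. Dashed lines mark 1 and -1. Medians run from -0.65 for amacrine and horizontal cells to 0.50 for fibroblasts.

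Markers of neurons and glia of the retina were largely lower on the FD 0 hr array. Of 13 amacrine and horizontal cell markers 12 were below 0, 5 were lower by at least 1, or 38.5%, and the median was -0.65, or -0.45 without the control array. Their summed linear signal was 19693 on the control array and 9930 at FD 0 hr. CALB2, the calcium-binding protein calretinin, was at 12.09, 10.78, 11.80 and 12.02 on the 4 arrays in the usual order. PAX6, a transcription factor of retinal neurons, was at 11.68, 10.63, 11.16 and 11.38, and SLC32A1, the vesicular transporter of GABA and glycine, at 9.04, 8.04, 8.59 and 8.74. TFAP2B and SLC6A9 complete the 5. Ganglion cells had 11 of 14 markers below and 3 above 0, with 4 lower by at least 1, or 28.6%. Their median was -0.24, or -0.15 without the control array. NEFM and NEFL, neurofilament proteins of large axons, were at -1.82 and -1.44, and the 3 probe sets of NEFM ranged from -1.82 to -0.11. THY1, a surface protein, was at -1.77, and EBF3 completes the 4. STMN2 went the other way, at 0.64 with probe sets at 0.58 and 0.69. The summed signal of the ganglion cell list was 14986 and 12012.

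Glial, bipolar and photoreceptor markers on autosomes had fewer members past -1. All 9 markers of Müller glia were below 0, with a median of -0.37, and 0 reached -1. SOX9, a glial transcription factor, was at -0.89 and GLUL, the glutamine synthetase, at -0.57. All 7 oligodendrocyte markers were below 0, with a median of -0.48, or -0.14 without the control array. This median was -0.07 with the mean of the probe sets and -0.17 with the probe set of highest mean. Among these markers were CNP, an enzyme of myelin, at -1.09 and MBP, the myelin basic protein, at -0.48, although the 3 probe sets of MBP ranged from -1.16 to 1.31. Bipolar cell markers had 7 of 9 below 0 and a median of -0.36, or -0.20 without the control array and -0.09 without shared probe sets. Among 9 cone markers on autosomes 6 were below 0 with a median of -0.02, where ARR3, the cone arrestin, was at -1.15, CNGB3, a subunit of the cone channel, at -1 and PDE6C, the cone phosphodiesterase, at 0.79, and the summed signals were close, at 10408 and 10398. The list of general photoreceptor markers had 4 of 6 below 0 with a median of -0.39, or -0.30 without the control array, and 0 reached -1. The red opsin OPN1LW and the blue opsin OPN2SW are cone markers too. They have no chromosome in the assembly and stand outside the cone counts and summed signals. Both were past -1, so the close summed signals hold for the autosomal cone markers and not for all cone markers. OPN1LW was at 13.37 on the control array, 11.06 at FD 0 hr, 12.66 after 6 hr of recovery and 11.91 after 24 hr, and OPN2SW at 11.86, 10.14, 10.99 and 11.31.

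Markers of the RPE and of macrophages went both ways. Most melanosome, endothelial, smooth muscle and fibroblast markers were above 0, dim ones included. Of 12 RPE markers 5 were above and 6 below 0 with a median of -0.07, and RPE65, the isomerase that defines the RPE, was at 13.09 on both arrays. GNAT2, the cone transducin, was at 12.37 and 12.16, whereas GNAT1, the rod transducin, was under the limit, at 5.85 and 5.76. STRA6, the retinol uptake receptor, was at -0.89, and RRH, a retinal-binding opsin of the RPE, at 0.63. Melanosome genes off the Z chromosome had 7 of 10 above 0 and a median of 0.19, with DCT, an enzyme of melanin synthesis, at 1.17 and PMEL, the fibril protein, at -0.96. Without the control array the melanosome median was 0.09. Endothelial markers had 8 of 11 above 0 with a median of 0.06, but only 5 were above the limit, and these had a median of -0.06. Among these 5, CDH5 was at 1.35, whereas SOX18 was at -0.83 and TIE1 at -0.48, with both of its probe sets lower. Smooth muscle and pericyte markers had 6 of 8 above 0 with a median of 0.22, or 0.01 without the control array. Fibroblast markers had 9 of 11 above 0 and the highest median of the lists shown, 0.50, or 0.30 without the control array, although only 4 were above the limit and COL1A1 was lower. The macrophage list had 6 of 11 markers above and 5 below 0, with a median of 0.07, or -0.06 without the control array. In it LY86, a surface protein of myeloid and B cells, was at 1.56, C1QA and C1QB of complement at 0.59 and 0.68 and CSF1R, the defining receptor, at -0.40 with probe sets from -0.65 to 0.79. How far a different share of retina, RPE and choroid in the pools moves with the gene lists above was not tested.

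The genes past 1 or -1 were also set against all genes by place and span, which their choice did not use. On chromosomes 1 to 5, the large ones, 140 of 2559 genes were past 1 and 87 past -1, with a median of 0.04. On chromosomes 6 to 10 it was 34 and 47 of 930. On chromosomes 11 to 39, the small ones, it was 44 and 141 of 2256, with a median of -0.16. Over all 5745 genes 3.79% were past 1 and 4.79% past -1. Chromosome 27 had 0 of 107 genes higher and 11 lower, or 10.28%, and chromosome 28 had 0 of 105 higher and 11 lower, or 10.48%. Chromosomes 22 and 24 had larger lower shares, 11.27% and 13.51%. Chromosome 34 had 0 of 44 higher and 4.55% lower, and chromosome 26 had 3.74% higher and 8.41% lower. Of the higher genes 64.2% lay on chromosomes 1 to 5, against 44.5% of all 5745 genes and 31.6% of the lower genes. Against the same control array, the 3 classes had medians of 0.06, -0.01 and -0.09 after 6 hr of recovery and of -0.02, -0.04 and -0.08 after 24 hr. From FD 6 hr to FD 24 hr, which uses neither array of the comparison, the medians were -0.07, -0.02 and 0.02.

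The genomic span of a gene, from its start to its end with introns, had a median of 11.7 kb for the higher genes, 18.1 kb for the lower genes and 13.1 kb for all. Among the 1149 genes with the longest spans, from 41.38 kb, 30 were higher and 78 lower by at least 1, while the other groups of 1149 genes, from the shortest spans upward, had 38 and 44, 47 and 34, 59 and 60, and 44 and 59. ERBB4, NFASC, LSAMP and MDGA2 are long genes of this kind. By mean level, the dimmest 1150 genes above the limit held 20 higher and 25 lower genes and the brightest 1146 held 52 and 79. Whether base composition, transcript length or the wider 3′ to 5′ gap of β-actin on the FD 0 hr array moves with the place and span of the genes was not tested.

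**Figure D5:**
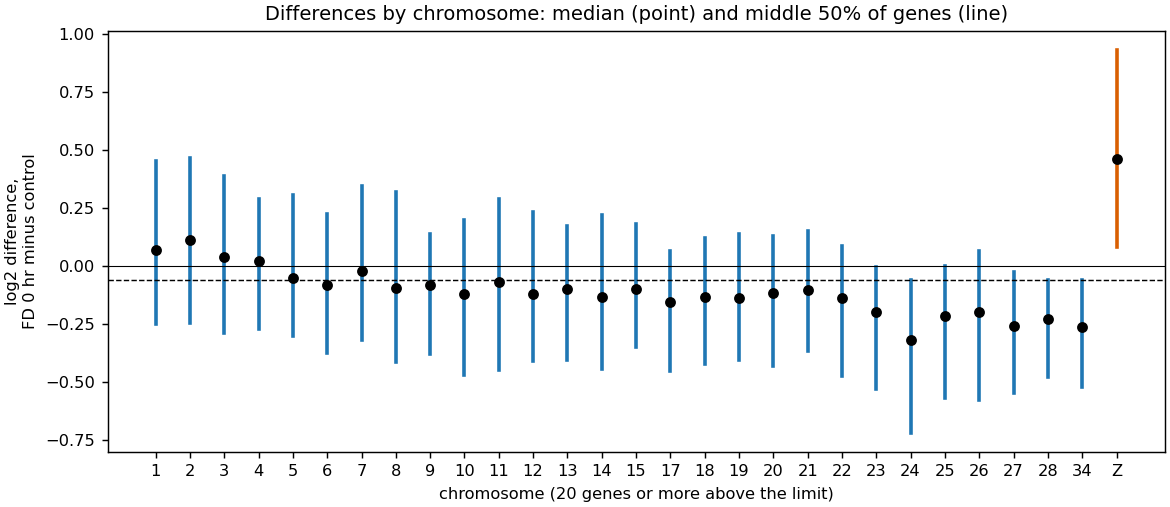
Median log2 difference of FD 0 hr minus control (points) and range of the middle 50% of genes (lines) for each chromosome with at least 20 genes above the limit. The dashed line is the median of all autosomal genes, -0.06. Chromosomes 1 to 4 lie above 0, those numbered from 23 at -0.20 or below, and Z at 0.46.

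On the Z chromosome, of which male chicks have a pair and females a single copy, 216 of 269 genes above the limit were above and 52 below control at FD 0 hr, with a median of 0.46. Of these, 59 were higher by at least 1, which is 21.9%, and 1 was lower by as much, which is 0.372%. The single gene past -1 was CPLX4, a complexin of the retina, at 10.52 on the control array and 9.25 at FD 0 hr. Against control the median of the Z genes was 0.44 after 6 hr of recovery and 0.35 after 24 hr, and without the control array it was 0.09. MLANA, a melanosome protein, was at 7.87 on the control array, 11.09 at FD 0 hr, 9.20 after 6 hr of recovery and 10.66 after 24 hr, a difference of 3.22. ANXA1, an annexin that restrains inflammation, was at 6.17, 8.70, 7.71 and 7.45, and RAD1, a clamp protein of DNA damage signalling, at 6.70, 8.96, 8.54 and 8.13. The control array was the lowest in all 3. MTAP, an enzyme of methionine salvage, and CFC1, a co-receptor of Nodal, were each at 2.19, ATP6AP1L at 2.01, CEP78 of the centrosome at 1.97 and PHAX, an RNA export adaptor, at 1.96. At the other end RBP4, the retinol carrier, was at -0.69, FRMD3 at -0.82 and RUSC2, GALT, TLE1, GBA2 and STOML2 between -0.70 and -0.57.

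Of 17 genes that the assembly places on the W chromosome, 6 were lower on the FD 0 hr array by at least 1 and 0 higher. HINTW had a gene value of -3.84 with probe sets at -6.71 and -0.97. LOC430910 was at 8.66 on the control array and between 5.26 and 5.42 on the other 3, LOC107049459 at 7.36 and 5.01 to 5.22, and UBE2R2L at 6.4 and 4.80 to 5.06. SPIN1L and HNRNPKL were at -1.53 and -1.20. Of the 6 genes only HINTW was above the limit, and the others were dim. In all 6 the control array was the highest and the other 3 arrays were close to each other. MBD2 and NEDD4L, which the assembly also places on W, were at -0.23 and 0.33, and the remaining 9 lay between -0.34 and 0.12. Sex of the pooled chicks and form deprivation cannot be told apart for genes of Z and W, and their part in the autosomal differences was not tested.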

How the data were processed

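The deposited values are log2 expression of 38535 probe sets on 4 single-colour arrays, which the authors summarised from scanner files with Affymetrix Expression Console and RMA; MAS5 is named as well in the submitters' processing notes. By the methods, these arrays were pre-processed alone and also jointly with archived arrays of myopia induction, and the joint values were the ones presented; which of them the deposited table holds is not stated. The platform's annotation gave 1 gene to 27178 probe sets, several to 177 and none to 11180. Probe sets of 1 Entrez gene were summarised by their median, giving 13051 genes. RefSeq (GRCg7b) held 12872 of them by Entrez ID and gave names, synonyms, chromosomes and gene span. Protein and promoter sequences were not used here, so gene span took the place of protein length.

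No test was run. Named genes were the 25 autosomal genes furthest in each direction among those whose probe sets went the same way, up to 5 members of each of 58 gene lists and 20 marker lists, 8 Z-linked genes in each direction, all W-linked genes and genes behind a count of 5 or fewer. Loci without a gene name were passed over off the W chromosome. BIVM, CAT, COL14A1, FIGNL2, FOXO1, GNAT1, GSTO2, GTF2A2, HMOX1, KICS2, LYVE1, MAU2, NCALD, NDUFV1, OGN, OPN1LW, OPN2SW, POSTN, PRDX1, RPE65 and SOGA3 were named outside this rule after their values were seen. The members and lists were chosen with earlier results of these data known. The alternatives were other summaries of the probe sets, other limits, quantile normalisation and other arrays on either side. The counting was tested on simulated data. Python 3.11.15, NumPy 2.4.6, pandas 2.3.3, SciPy 1.17.1 and Matplotlib 3.10.9 were used.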

Additional observations from a re-analysis of the deposited data

Results flagged for a closer look

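Probe sets that the platform's annotation ties to no gene or to several genes stood outside the comparison but carried differences too. Of 11271 such probe sets 3596 were above the limit for dim genes, and of these 133 were higher on the FD 0 hr array by at least 1, or 3.7%, and 213 lower, or 5.92%. Their median difference was -0.07.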

How the results depend on the processing

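The counts of 218 higher and 275 lower genes stayed within a factor of 1.5 with the mean of the probe sets and without probe sets of shared transcripts. The same held with the limit at the 50th or 70th percentile or set from the recovery arrays, and with Z and W kept in. It also held with quantile normalisation or centred arrays. These had little to change, since the values were normalised by RMA and the array medians were 5.73 or 5.74. The probe set with the highest mean gave 370 and 425, FD 6 hr in place of FD 0 hr 70 and 68, FD 24 hr 31 and 82, and the control array left out, which was chosen after seeing the data, 47 and 59. Genes with 2 or more probe sets that all went the same way numbered 56 and 98, out of 69 and 128 counted genes with more than 1 probe set. When every probe set had to be past 1, the higher genes were 172 and the lower genes 167. Genes with a single probe set meet this condition by definition, and they made up 149 and 147 of these. Of the 69 and 128 genes with more than 1 probe set, 23 and 20 met it. The causes of these shifts in the counts were not tested. No paired analysis was possible because each condition had 1 array.

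Of 31 list medians, 5 turned sign without the control array and 9 with FD 24 hr, most of them from within 0.1 of 0. Larger turns were the retinoic acid pathway without the control array (-0.24 to 0.08) and, with FD 24 hr, ganglion cells (-0.24 to 0.08) and fibroblasts (0.50 to -0.03). The clock median was -0.02 with FD 6 hr and -0.07 with FD 24 hr. The median of cytosolic ribosomal proteins was 0.09, that of chromatin genes -0.04 and that of immediate early genes -0.03 without the control array. Chromatin genes had -0.03 with the probe set of highest mean, -0.02 without shared transcripts and -0.30 over members above the limit. In the latter setting axon guidance had -0.48, proteoglycans -0.37 and cell cycle genes 0.25. Axon guidance had -0.30 with the probe set of highest mean. With FD 24 hr chaperones had 0.10, endothelium -0.10 and amacrine and horizontal cells -0.21, and with FD 6 hr Müller glia had -0.14.

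Among 146 named genes past 1 or -1, the direction turned with FD 24 hr in place of FD 0 hr for AKR1D1 (-0.05), CA4 (-0.09), CAT (-0.48), CDH5 (-0.19), CNGB3 (0.59), FLI1 (-0.19), FOXO1 (-0.12), HDAC4 (0.31), LY86 (-0.21), MMP2 (-0.33), NEFL (0.08), OGN (-0.03) and PDK4 (-0.37), and with FD 6 hr for CHGA (0.05) and SOGA3 (0.12). With the probe set of highest mean it turned for CHD7 (0.22), COL5A1 (0.09) and EBF3 (0.11). Without the control array it turned for HINTW (0.16), HNRNPKL (0.11), KCNA2 (0.01), LOC107049459 (0.14), SPIN1L (0.07), SYT1 (0.07) and UBE2R2L (0.19). Named genes within 1 turned as well, with FD 24 hr MSMO1 (-0.01), RRH (-0.02), GNAT2 (0.07), FIGNL2 (-0.24) and KICS2 (0.41), with FD 6 hr GNAT1 (0.02), GNAT2 (0.19) and FIGNL2 (-0.33), and without the control array MBD2 (0.15). MBP and CSF1R turned with the mean of the probe sets (0.28 and 0.01), the probe set of highest mean (1.31 and 0.79) and without shared transcripts (0.07 and 0.42), and FIGNL2 with the probe set of highest mean (-0.02).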
